A study of Rattus norvegicus with 32 samples.

Results

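Of the 12901 genes in the count table, 8 mark fat cells or make fat, and they are described here in rat gastrocnemius, a mixed calf muscle. They were taken by name: Fabp4, Adipoq, Plin1, Cidec and Cfd as adipocyte markers, and Fasn, Acly and Dgat2 as lipogenic enzymes. All 8 were in the table and all 8 passed the filter on low counts, as did 11594 genes in all. The study compared the muscle of male control rats with that of male rats lacking UCP1, the uncoupling protein of brown fat, each kept at room temperature or exposed to 4 °C for 2 weeks. Its 32 libraries form 4 groups. Control rats gave 7 libraries at room temperature (called control_RT below) and 7 in the cold (control_4C). UCP1 knockout rats gave 9 at room temperature (KO_RT) and 9 in the cold (KO_4C). The rats were fed chow and were 20 weeks old at the cold exposure. The labels name 7 control and 9 knockout rats and do not say whether the same animals gave both the room-temperature and the cold muscle. They also give neither the strain nor the deletion; Ucp1 itself is not analysed here.

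White adipocytes lie between muscle fibres in small numbers and store triglyceride in a droplet coated by perilipin 1 (Plin1) and enlarged by CIDEC, a fusion protein of the droplet surface. The same cells secrete adiponectin (Adipoq) and the complement protease adipsin (Cfd). FABP4 carries fatty acids in the adipocyte cytosol, and it is also made by capillary endothelium and by macrophages. In fat synthesis, ATP citrate lyase (Acly) makes cytosolic acetyl-CoA from citrate, fatty acid synthase (Fasn) joins it into palmitate, and DGAT2 adds the last fatty acid to form triglyceride. Acly and Dgat2 are active in many cell types, muscle fibres included.

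The RefSeq promoter table (build GRCr8) held 5 of the 8 genes, not Fabp4, Fasn and Dgat2; each entry runs from 250 bases before to 50 after the start of the gene. The promoters of 3 droplet and secreted markers, whose levels varied together between libraries, are set below beside that of Acly, whose r with Adipoq was -0.19. All 4 lie on the minus strand: Adipoq at chr11:91240120-91240419, Plin1 at chr1:143086099-143086398, Cidec at chr4:148137066-148137365 and Acly at chr10:85963582-85963881. These are GRCr8 positions, while the counts were made on Rnor_6.0. Capitals mark 2 motifs, CCAAT and GGGCGG, searched on both strands. A match to the first on the opposite strand reads ATTGG. A match to the second reads, on that strand, CCGCCC. No marked motif overlapped another.
Adipoq: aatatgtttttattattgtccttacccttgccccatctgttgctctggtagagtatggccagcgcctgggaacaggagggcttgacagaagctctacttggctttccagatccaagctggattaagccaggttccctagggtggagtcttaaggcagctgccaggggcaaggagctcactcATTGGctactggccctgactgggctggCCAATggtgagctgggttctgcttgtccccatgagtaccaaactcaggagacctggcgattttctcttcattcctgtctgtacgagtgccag
Plin1: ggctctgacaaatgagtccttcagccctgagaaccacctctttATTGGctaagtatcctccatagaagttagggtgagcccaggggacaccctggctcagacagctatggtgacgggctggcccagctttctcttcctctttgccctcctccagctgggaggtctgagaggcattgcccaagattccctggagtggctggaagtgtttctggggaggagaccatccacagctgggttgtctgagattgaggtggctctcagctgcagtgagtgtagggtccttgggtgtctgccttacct
Cidec: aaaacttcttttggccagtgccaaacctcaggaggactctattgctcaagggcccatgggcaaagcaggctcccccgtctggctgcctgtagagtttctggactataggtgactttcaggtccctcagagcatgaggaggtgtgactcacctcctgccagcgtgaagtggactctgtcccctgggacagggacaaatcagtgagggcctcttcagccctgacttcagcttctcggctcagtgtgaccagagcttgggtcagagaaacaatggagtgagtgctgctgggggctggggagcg
Acly: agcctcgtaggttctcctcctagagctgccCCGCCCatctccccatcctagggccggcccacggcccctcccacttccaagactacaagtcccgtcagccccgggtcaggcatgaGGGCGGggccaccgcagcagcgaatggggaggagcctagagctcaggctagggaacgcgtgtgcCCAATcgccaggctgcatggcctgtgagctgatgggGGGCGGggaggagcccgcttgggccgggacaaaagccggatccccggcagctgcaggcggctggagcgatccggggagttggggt
CCAAT was found 2 times in the Adipoq promoter, 1 time in Plin1 and 1 time in Acly, and 37.5% of 33469 promoters of the same length in the table held it. GGGCGG was found 3 times in Acly and 1 time in Cfd, against 33.1% of all promoters with at least 1 match. The letters AGGTCA and CACGTG, searched on both strands, were in none of the 5 windows, against 16.2% and 6.42% of all promoters. The G and C content was 53% in Adipoq, 56% in Plin1, 57% in Cidec, 61.3% in Cfd and 69% in Acly, and the median over the table was 51.7%. These matches describe the letters of the windows only.

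Levels are CPM (counts scaled to a common library total) of the 3′-end reads, scaled by TMM, and each fold change comes from edgeR's quasi-likelihood test over all 32 libraries with Benjamini-Hochberg adjustment over the 11594 genes, a call being an adjusted p under 0.05. Library totals ran from 7275508 to 25846976 counts. The 4 libraries with the highest score on the first principal component (21.7% of the variance) were the KO_RT library of column KO8, control_RT replicate 2, column KO10 and control_RT replicate 3. Among them column KO8 also held the most Plin1, Cfd and Fasn of all 32 libraries, so the KO_RT results that it moved most are given with and without it. It was singled out after these values were seen. Leaving out the highest library of a group by itself lowers the mean of that group. In 3 libraries, control_4C replicates 3 and 6 and control_RT replicate 4, the summed level of 26 intestinal epithelial genes was 1960, 1680 and 1440 CPM, and in the others it was at most 887 CPM. Muscle is bulk tissue, so more adipocytes and more RNA of these genes per adipocyte cannot be told apart.

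After cold, 4 of the 5 adipocyte markers were higher in control muscle. Of the 8 genes 4, Fabp4, Adipoq, Plin1 and Cidec, were called higher and none lower, while 12.4% of all tested genes were called higher. In knockout muscle 1 of 8, Fabp4, was called higher after cold, against 7.49% of all genes; without column KO8 it was 3 of 8, Fabp4, Plin1 and Cfd, against 7.03%. At room temperature Fabp4 was also the 1 of 8 called higher in knockout than in control muscle, where 2.35% of all genes were. There 5 of 8 (Fabp4, Plin1, Cidec, Adipoq and Fasn) had an unadjusted p under 0.05, a looser threshold than for the 2.35%. By p Fasn, the last of these 5, had rank 1776 of all tested genes, so at least 1776 genes had such a p. The count includes column KO8, the highest of KO_RT for Plin1, Cidec, Adipoq and Fasn. At 4 °C the genotypes differed in none of the 8 by edgeR or DESeq2. Over all genes edgeR called 0.0518% in either direction, 6 genes, and DESeq2 called 432. There 1 of 8, Acly, had an unadjusted edgeR p under 0.05, at rank 907 of all tested genes, so at least 907 genes had such a p. The interaction is the cold response of knockout minus that of control rats. It was called for none of the 8 by either tool. Over all genes edgeR called it for 0.0259%, 3 genes, and DESeq2 for 106. Cidec and Fabp4, 2 of 8, had an unadjusted p under 0.05 there, at ranks 420 and 726 of all tested genes. The median log2 difference of the 8 was 0.85 for cold in control rats, 0.20 for cold in knockout rats and 0.54 for knockout against control at room temperature, while the median over all genes was 0.03, 0.01 and 0.00344. Without column KO8 the median of the 8 was 0.85, 0.49 and 0.33.

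**Figure D1:**
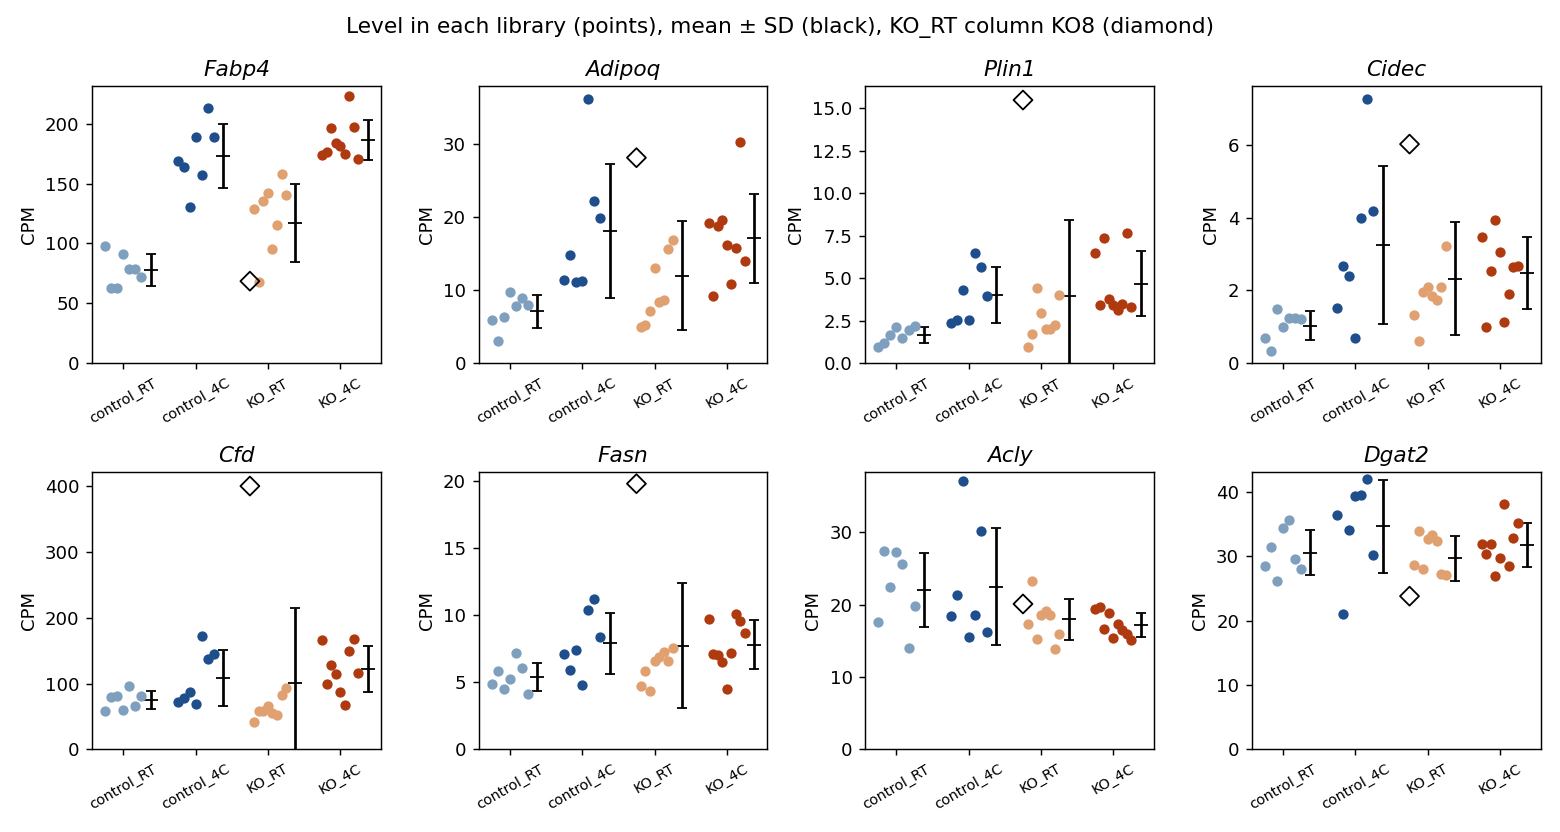
Level of each of the 8 genes (vertical axis, CPM, from 0) in the libraries of the 4 groups, 1 point per library, with mean ± SD in black (SD bars that would pass below 0 end at the axis). The diamond is the KO_RT library of column KO8, the highest of its group for Plin1, Cidec, Cfd, Fasn and Adipoq at 15.5, 6.02, 400, 19.8 and 28.1 CPM, while Fabp4 there was 68.6 CPM.

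Adipoq (ENSRNOG00000001821), the adipokine, stood at 5.95, 3.01, 6.37, 9.68, 7.85, 8.89 and 7.91 CPM in control_RT replicates 1 to 7. In control_4C replicates 1 to 7 it stood at 11.3, 14.8, 11.1, 11.2, 36.2, 22.2 and 19.8 CPM. Each cold library lay above every room-temperature one, and replicate 5 was the highest. The group means were 7.09 ± 2.23 (SD, n = 7) and 18.1 ± 9.13 CPM (SD, n = 7), a log2 difference of 1.35 ± 0.341 (SE; adjusted p = 0.00497). In KO_RT the level was 28.1 CPM in column KO8 and from 4.89 to 16.8 CPM in the other 8 libraries. KO_4C ran from 9.22 to 30.2 CPM with a median of 16.2 CPM. The knockout groups therefore overlapped, and the cold difference of 0.52 ± 0.296 (adjusted p = 0.262; 0.76 ± 0.277 and 0.0701 without column KO8) was not called. Between genotypes at room temperature the log2 difference was 0.73 ± 0.326 (adjusted p = 0.242; 0.47 ± 0.301 and 0.375 without column KO8), and at 4 °C it was -0.10 ± 0.310 (adjusted p = 0.939).

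Plin1 (ENSRNOG00000015086), the droplet coat protein, stood at 0.968, 1.17, 1.68, 2.13, 1.51, 1.97 and 2.18 CPM in control_RT replicates 1 to 7. In control_4C replicates 1 to 7 it stood at 2.37, 2.54, 4.33, 2.52, 6.52, 5.69 and 3.96 CPM. These groups did not overlap either, though the lowest cold library was close to the highest at room temperature. The log2 difference was 1.27 ± 0.417 (adjusted p = 0.028), from 1.66 ± 0.472 to 3.99 ± 1.65 CPM (SD, n = 7 each). The call was lost, with adjusted p from 0.0574 to 0.0714, when control_RT replicate 1 or 2 or control_4C replicate 5 or 6 was left out, and also without the 3 libraries highest in intestinal genes (adjusted p = 0.0862) or with the mean level of endothelial genes as a covariate (adjusted p = 0.0837). In KO_RT, column KO8 held 15.5 CPM and the other 8 libraries from 0.941 to 4.46 CPM, while KO_4C ran from 3.15 to 7.68 CPM. With all libraries cold in knockout rats gave 0.28 ± 0.352 (adjusted p = 0.653), and without column KO8 it gave 0.84 ± 0.266 (adjusted p = 0.0301), so this call depends on that library. Between genotypes at room temperature Plin1 gave 1.19 ± 0.403 (adjusted p = 0.103), and 0.61 ± 0.297 (adjusted p = 0.227) without column KO8.

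Cidec (ENSRNOG00000009153), which lets droplets grow by fusion, had the largest fold change of the 8 with cold in control rats. It stood at 0.691, 0.334, 1.5, 0.985, 1.24, 1.23 and 1.23 CPM in control_RT replicates 1 to 7 and at 1.52, 2.68, 2.41, 0.687, 3.99, 7.26 and 4.18 CPM in control_4C replicates 1 to 7. Of the cold libraries 6 of 7 lay above every room-temperature library, and replicate 4 lay inside their range. The log2 difference was 1.65 ± 0.411 (adjusted p = 0.00389). Levels this low carry counting error: the 0.334 CPM of control_RT replicate 2 is 4 counts, or 2 reads if each read was entered in duplicate, with an exact 95% Poisson interval of 0.0404 to 1.21 CPM that covers counting error only. KO_RT ran from 0.619 to 6.02 CPM, with at most 3.23 CPM outside column KO8, and KO_4C from 0.988 to 3.94 CPM. Cold in knockout rats gave 0.12 ± 0.349 (adjusted p = 0.861), and 0.38 ± 0.334 (adjusted p = 0.516) without column KO8. Between genotypes at room temperature it gave 1.13 ± 0.399 (adjusted p = 0.12), and 0.83 ± 0.377 (adjusted p = 0.186) without that library. The difference between the 2 cold responses was -1.53 ± 0.538, with an unadjusted p of 0.00715 that did not pass adjustment by edgeR (adjusted p = 0.198).

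Cfd (ENSRNOG00000033564), adipsin, ran from 58.8 to 97.0 CPM in control_RT (median 79.6) and from 68.4 to 173 CPM in control_4C (median 87.5). Control_4C replicates 5, 6 and 7 held 173, 138 and 145 CPM, and the other 4 held at most 87.5 CPM, within the room-temperature range. The log2 difference was 0.55 ± 0.378 (adjusted p = 0.33). In KO_RT, column KO8 held 400 CPM and the others from 41.4 to 92.8 CPM, while KO_4C ran from 67.0 to 168 CPM with a median of 115 CPM. Cold in knockout rats gave 0.28 ± 0.333 (adjusted p = 0.637) over all libraries and 0.93 ± 0.199 (adjusted p = 0.00173) without column KO8. That library also set the sign between genotypes at room temperature: 0.43 ± 0.359 (adjusted p = 0.598) with it and -0.26 ± 0.209 (adjusted p = 0.515) without it.

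Fabp4 (ENSRNOG00000010805), the fatty acid carrier, was the only one of the 8 called in both genotypes after cold over all libraries; without column KO8 Plin1 was too. Control_RT replicates 1 to 7 held 97.8, 62.5, 62.9, 90.9, 78.8, 78.4 and 72.3 CPM, and control_4C replicates 1 to 7 held 169, 164, 131, 189, 158, 213 and 189 CPM. The groups were far apart, with means of 77.6 ± 13.3 and 173 ± 26.5 CPM (SD, n = 7 each), and the log2 difference was 1.16 ± 0.146 (adjusted p = 2.6e-06). KO_RT columns KO8, KO9, KO10, KO11, KO13, KO14, KO15, KO16 and KO17 held 68.6, 129, 68.1, 136, 142, 95.2, 115, 158 and 140 CPM. KO_4C replicates 1 to 9 held 174, 176, 196, 184, 182, 174, 223, 198 and 171 CPM, all above the KO_RT libraries. Cold in knockout rats gave 0.67 ± 0.128 (adjusted p = 0.00031), from 117 ± 32.7 to 186 ± 16.7 CPM (SD, n = 9 each). Groups without overlap, with cold the higher, were seen for 3 of the 8 genes in control rats (Fabp4, Adipoq and Plin1; 3.42% of all genes) and for 1 of the 8 in knockout rats (Fabp4; 0.975% of all genes).

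At room temperature Fabp4 was 0.59 ± 0.138 higher in knockout than in control muscle on the log2 scale (adjusted p = 0.0171). Of the KO_RT libraries 6 of 9 lay above every control_RT library, and columns KO8, KO10 and KO14, at 68.6, 68.1 and 95.2 CPM, lay inside the control range. Leaving out control_RT replicate 2, control_RT replicate 3 or column KO16 ended this call (adjusted p from 0.0501 to 0.0585), as did a fit of the 2 groups alone (adjusted p = 0.133). At 4 °C the genotypes differed by 0.11 ± 0.136 (adjusted p = 0.793; 95% interval -0.158 to 0.374). The interaction was -0.48 ± 0.193, toward a smaller cold difference in knockout muscle, and was not called (adjusted p = 0.27). Without the 4 libraries highest on the first component it was -0.53 ± 0.145 and was called (adjusted p = 0.043). Those 4 libraries held the 4 lowest Fabp4 values of the 32, at most 68.6 CPM against at least 72.3 CPM in the rest.

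Some genes of the other cells that make Fabp4 also moved with cold, where 12.4% of all genes were called higher in control and 7.49% in knockout rats. Of 15 tested endothelial genes 4 were called higher after cold in control rats and 7 in knockout rats, with none lower over all libraries. Without column KO8, 1 of 15 was called lower in control rats. Over all libraries Emcn and Egfl7 went down there without a call (-0.25 ± 0.119 and -0.29 ± 0.137, adjusted p = 0.131 and 0.137). Flt1, a VEGF receptor, rose by 0.84 ± 0.145 in control and 0.77 ± 0.127 in knockout rats on the log2 scale. Gpihbp1, which anchors lipoprotein lipase in capillaries, rose by 0.66 ± 0.199 and 1.41 ± 0.180. The 15 genes summed to 607 to 824 CPM in control_RT, 686 to 1100 CPM in control_4C, 596 to 868 CPM in KO_RT and 773 to 1270 CPM in KO_4C. Of 12 macrophage genes 6 were called higher in each genotype; Lyz2, lysozyme of macrophages, rose by 0.99 ± 0.143 and 1.12 ± 0.128, and Cd163, a haemoglobin scavenger receptor, by 1.04 ± 0.195 and 1.13 ± 0.173. Their sums were 132 to 210 CPM in control_RT, 192 to 311 CPM in control_4C, 109 to 154 CPM in KO_RT and 157 to 297 CPM in KO_4C. Of the measured genes 15 of 16 endothelial and 11 of 12 macrophage ones had counts in every library. With the mean endothelial level as a covariate, Fabp4 after cold in control rats was 1.15 ± 0.170 and stayed called (adjusted p = 4.55e-05), and in knockout rats it had the same size but a wider error, 0.67 ± 0.235, and was not called (adjusted p = 0.106). With the mean of Adipoq, Plin1, Cidec and Cfd as a covariate, the Fabp4 difference was 1.17 ± 0.176 in control rats (adjusted p = 4.77e-05) and 0.68 ± 0.139 in knockout rats (adjusted p = 0.000763). Both covariates hold genes that were themselves called higher with the same cold in control rats, such as Flt1 and Gpihbp1, and Adipoq, Plin1 and Cidec. Such fits cannot divide the Fabp4 difference between cell types. The parts of endothelial cells, adipocytes and macrophages in it were not tested. Over all genes, the endothelial covariate left 349 called for cold in knockout rats, against 1596 without it.

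**Figure D2:**
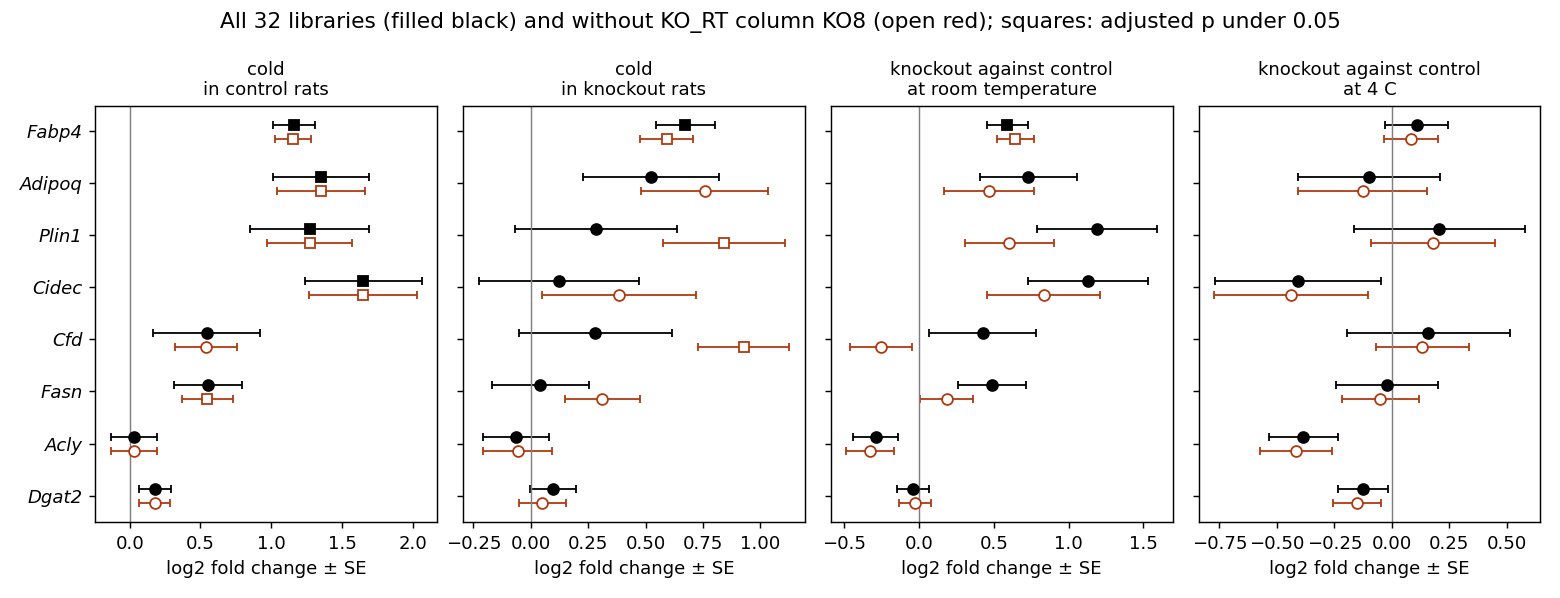
Log2 fold change ± SE of the 8 genes (rows) in the 4 pairwise comparisons (panels, each with its own horizontal scale), over all 32 libraries (black) and without the KO_RT library of column KO8 (red); squares mark an adjusted p under 0.05. The points move with that library most for Plin1 and Cfd in the 2 comparisons that use KO_RT, and Cfd goes from 0.43 to -0.26 between genotypes at room temperature.

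None of the 3 lipogenic enzymes was called in any of the 5 comparisons over all libraries, by edgeR or by DESeq2; an unadjusted p under 0.05 was seen for Fasn with cold in control rats and between genotypes at room temperature, and for Acly between genotypes at 4 °C. Fasn (ENSRNOG00000045636), which makes palmitate, stood at 4.84, 5.84, 4.49, 5.25, 7.16, 6.05 and 4.09 CPM in control_RT replicates 1 to 7 and at 7.11, 5.92, 7.38, 4.81, 10.4, 11.2 and 8.36 CPM in control_4C replicates 1 to 7. The groups overlapped, with control_4C replicates 1, 2 and 4 inside the room-temperature range, and the log2 difference was 0.55 ± 0.241 (adjusted p = 0.10). Without column KO8, a library of another group that enters the shared estimate of spread, it was 0.55 ± 0.182 and was called (adjusted p = 0.0248). With the mean of the 4 droplet and secreted markers as a covariate the difference was -0.07 ± 0.202 (adjusted p = 0.843). Of these markers Adipoq, Plin1 and Cidec were themselves called higher with the same cold. Removing their level can therefore remove part of the cold difference as well, and what the Fasn difference comes from was not tested. In KO_RT, column KO8 held 19.8 CPM and the others from 4.33 to 7.54 CPM, while KO_4C ran from 4.49 to 10.1 CPM, and cold in knockout rats gave 0.04 ± 0.211 (adjusted p = 0.923), or 0.31 ± 0.164 (adjusted p = 0.235) without column KO8.

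Acly (ENSRNOG00000016924), the citrate-cleaving enzyme, ran from 13.9 to 27.4 CPM in control_RT (median 22.5) and from 15.6 to 37.1 CPM in control_4C (median 18.5). The highest values of the 32 were 37.1 CPM in control_4C replicate 3 and 30.2 CPM in control_4C replicate 6, and control_RT replicate 4 ranked 4th at 27.2 CPM; these are the 3 libraries highest in intestinal genes. The log2 difference was 0.03 ± 0.161 (adjusted p = 0.92) with them and -0.23 ± 0.143 (adjusted p = 0.284) without them. In knockout muscle Acly was 13.9 to 23.3 CPM at room temperature and 15 to 19.6 CPM after cold, a difference of -0.06 ± 0.143 (adjusted p = 0.817; 95% interval -0.344 to 0.217). Between genotypes at 4 °C it was -0.38 ± 0.152, with an unadjusted edgeR p of 0.0158 that did not pass adjustment (adjusted p = 0.201). With 1 library left out it ran from -0.488 to -0.218 (adjusted p from 0.0701 to 0.667). The 26 intestinal genes had a median log2 difference of -1.02 in the same comparison, and a link with the Acly difference was not tested. At room temperature the Acly difference between genotypes was -0.29 ± 0.152 (adjusted p = 0.327).

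Dgat2 (ENSRNOG00000016573), which forms triglyceride, overlapped between all 4 groups. It stood at 26.2 to 35.7 CPM in control_RT, 21.0 to 42.0 CPM in control_4C, 23.8 to 33.9 CPM in KO_RT and 27.0 to 38.2 CPM in KO_4C. Group means lay between 29.7 ± 3.50 (SD, n = 9) and 34.7 ± 7.19 CPM (SD, n = 7), less apart than the spread within control_4C. Cold gave 0.18 ± 0.114 in control rats (adjusted p = 0.279; 95% interval -0.0441 to 0.403) and 0.10 ± 0.101 in knockout rats (adjusted p = 0.588; 95% interval -0.102 to 0.293). Between genotypes it was -0.04 ± 0.108 at room temperature (adjusted p = 0.893) and -0.13 ± 0.107 at 4 °C (adjusted p = 0.649).

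The spread between libraries of a group also differed among the 8 genes. The percentiles below set each gene against tested genes of every level, and low counts by themselves widen the spread. Cidec had 6 to 82 counts in control_4C and Plin1 10 to 108 in KO_RT, while Dgat2 had 166 to 548 in KO_RT. How much of the spread is counting error was not tested. On the log2 CPM scale the SD of Plin1 was 1.09 in KO_RT, higher than in 96.3% of tested genes, and that of Cidec was 1.03 in control_4C, higher than in 96.4%. Without column KO8 the SD of Plin1 in KO_RT was 0.668 (87.3rd percentile) and that of Cfd fell from 0.963 to 0.367 (59.6th percentile). Dgat2 was at the low end in 3 groups, with an SD of 0.161, 0.173 and 0.152 in control_RT, KO_RT and KO_4C, between the 11.4th and 14.1st percentile, but of 0.342 in control_4C (55.2nd percentile). Fabp4 had an SD of 0.124 in KO_4C (6.53rd percentile) and of 0.455 in KO_RT (61.8th percentile).

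The droplet and secreted markers went up and down together between libraries of the same group. With each library's log2 CPM centred on its group mean (n = 32), Pearson's r with Adipoq was 0.76 for Plin1, 0.791 for Cidec and 0.731 for Cfd, with Spearman's rho of 0.75, 0.722 and 0.602. Each r had an adjusted p of 0.00035 by permutation within groups (35 relations in the family), and rho had 0.0007, 0.0007 and 0.0118. Without the 2 libraries farthest in Adipoq, r was 0.657, 0.756 and 0.619, and without column KO8 it was 0.693, 0.748 and 0.676. For Fasn r was 0.604 (permutation, adjusted p = 0.00537) with a rho of 0.409 (adjusted p = 0.119), and r fell to 0.399 without the 2 farthest libraries and to 0.461 (adjusted p = 0.0615) without column KO8; the relation rests in part on that library. For Fabp4 r was 0.154 (permutation, adjusted p = 0.683; rho 0.33, adjusted p = 0.189) and 0.554 without the 2 farthest libraries, of which column KO8, high in Adipoq and low in Fabp4, is one. Acly had an r of -0.19 (adjusted p = 0.535; rho -0.102, adjusted p = 0.798) and Dgat2 of -0.136 (adjusted p = 0.683; rho -0.21, adjusted p = 0.511), with -0.236 and -0.109 without the 2 farthest libraries. The genes of a library share its depth and its scaling.

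Within single groups the relation was uneven. In KO_RT (n = 9) the exact permutation test gave r = 0.792 for Plin1 (adjusted p = 0.0329), 0.89 for Cidec (0.0027) and 0.845 for Cfd (0.00198), and r without the 2 farthest libraries was 0.463, 0.719 and 0.823. In control_4C (n = 7) it gave 0.923 for Cfd (exact, adjusted p = 0.02), where replicates 5, 6 and 7 were high in both genes. For Plin1 in control_4C r was 0.794 (exact, adjusted p = 0.0994) and 0.32 without the 2 farthest libraries. In control_RT (n = 7) r between Cfd and Adipoq was -0.212 (exact, adjusted p = 0.782). Cidec there had r = 0.823 (exact, adjusted p = 0.12) but a rho of 0.321, and r was -0.929 without the 2 farthest libraries. In KO_4C (n = 9) r was 0.745 for Plin1, 0.755 for Cidec and 0.708 for Cfd, and none passed adjustment (exact, adjusted p = 0.0559, 0.0559 and 0.0951). The summed level of Adipoq, Plin1 and Cidec was 4.51 to 12.8 CPM in control_RT, 14.4 to 46.7 CPM in control_4C, 7.15 to 49.6 CPM in KO_RT (at most 24.1 CPM without column KO8) and 13.7 to 40.5 CPM in KO_4C.

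**Figure D3:**
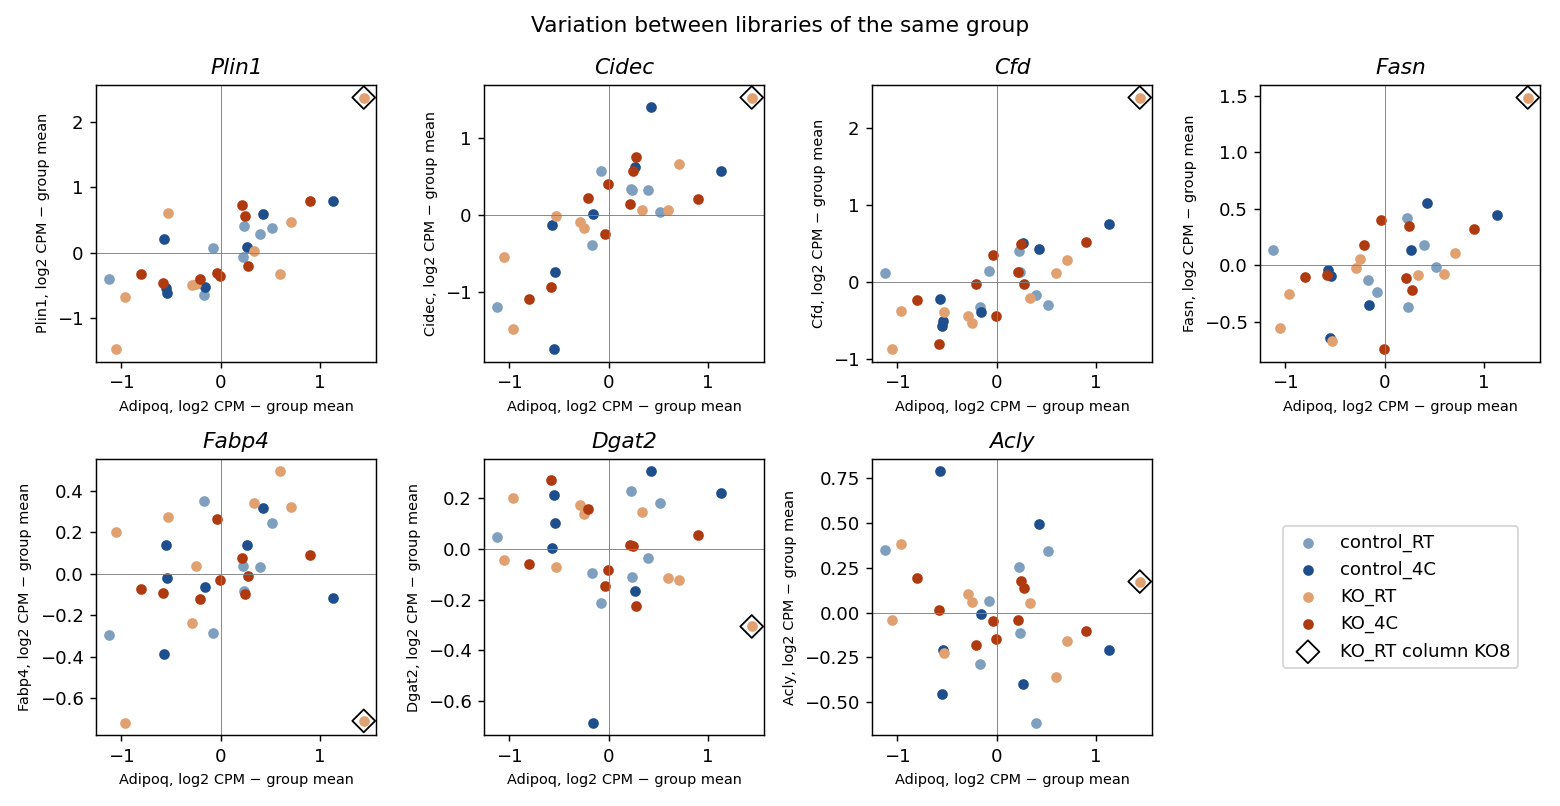
Each gene's log2 CPM less its group mean (vertical axis) against that of Adipoq (horizontal axis), 1 point per library and n = 32 in each panel; the diamond is the KO_RT library of column KO8. Plin1, Cidec and Cfd rise along the diagonal (r of 0.76, 0.791 and 0.731), and Fabp4, Dgat2 and Acly do not (0.154, -0.136 and -0.19).

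Of 7013 genes with a symbol and a mean of at least 5 CPM, the 6 most like the mean of Adipoq, Plin1 and Cidec between libraries of a group (n = 32) were Retn, Agt, Cdo1, Thrsp, Frg1 and Gdf11. Retn, the adipokine resistin, had r = 0.87 (0.812 without column KO8), at 93.2 CPM in that library and at most 12.2 CPM in the rest of KO_RT. Its cold difference was 1.05 ± 0.606 in control rats (adjusted p = 0.233) and -0.11 ± 0.517 in knockout rats (adjusted p = 0.915). Without column KO8 it was 1.04 ± 0.384 (adjusted p = 0.0465) and 1.02 ± 0.346 (adjusted p = 0.05). Agt, angiotensinogen, had r = 0.831 (0.774 without column KO8) and rose with cold in control rats by 1.27 ± 0.269 (adjusted p = 0.00107). Cdo1, cysteine dioxygenase, had r = 0.815 and rose by 0.70 ± 0.236 (adjusted p = 0.0318), and Thrsp, a lipogenic regulator, had r = 0.811 with a cold difference of 1.09 ± 0.444 (adjusted p = 0.0786). Frg1 and Gdf11 followed at 0.70 and 0.693, and without column KO8 at 0.656 and 0.569, where Frg1 ranked 6th and Gdf11 19th while the other 4 kept ranks 1 to 4. Gdf11 had no cold call in either genotype (0.22 ± 0.229 and 0.32 ± 0.201). In knockout rats Agt, Cdo1 and Thrsp were not called after cold (0.54 ± 0.233, 0.47 ± 0.208 and 0.71 ± 0.388, adjusted p = 0.126, 0.132 and 0.247). Without column KO8 they were called there (adjusted p = 0.0182, 0.0174 and 0.0085). These r values are a description over libraries that share depth and scaling.

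A wider list of 24 adipocyte genes outside the 8 had 20 in the table and 17 tested. After cold in control rats 8 of the 17 were called higher and none lower, against 12.4% of all genes called higher, and the median log2 difference was 0.86 against 0.03 over all genes; 2 of 17 were called higher in knockout rats, against 7.49%, with a median of 0.32 against 0.01. Without column KO8 these counts were 10 and 5, against 14% and 7.03% of all genes. Without the 4 libraries highest on the first component they were 5 and 4 of 18, against 9.79% and 6.53%. Car3, carbonic anhydrase 3, rose in control rats from 659 ± 257 to 2360 ± 616 CPM (SD, n = 7 each), by 1.84 ± 0.342 (adjusted p = 0.000422). Lpl, the lipase that frees fatty acids from lipoproteins, rose by 0.75 ± 0.145 in control and 1.32 ± 0.129 in knockout rats, and Lipe, hormone-sensitive lipase, rose in knockout rats by 0.79 ± 0.107. Car3, Lpl and Lipe are made by muscle fibres as well as by adipocytes. Slc7a10, an amino acid carrier of white adipocytes, rose in control rats by 2.10 ± 0.485 from 0.359 ± 0.276 CPM, and Pck1, which makes glycerol phosphate for triglyceride, by 1.41 ± 0.348. Between genotypes at room temperature Slc7a10 (1.92 ± 0.474, adjusted p = 0.0215) and Car3 (1.33 ± 0.323, adjusted p = 0.0221) were the 2 of 17 called. Both were higher in knockout muscle, where 2.35% of all genes were called higher. Of the adipokines, Lep ranged from 0.229 to 6.60 CPM and was at 0 in no library. Its cold difference was 0.67 ± 0.508 in control rats (adjusted p = 0.375) and -0.33 ± 0.442 in knockout rats (adjusted p = 0.681).

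Of 28 other genes of fatty acid and triglyceride synthesis, 22 were in the table and 21 were tested. In control rats 3 of 21 were called higher and 3 of 21 lower after cold, with a median of 0.19, shares near those of all genes (12.4% and 8.28%). Scd, the stearoyl-CoA desaturase, rose by 2.13 ± 0.628 (adjusted p = 0.0152) from 0.912 ± 0.487 to 3.98 ± 4.28 CPM, and Mlx, partner of the carbohydrate-response factor, by 1.12 ± 0.232 (adjusted p = 0.000866). Me1, the malic enzyme that supplies NADPH, fell by 0.56 on the log2 scale (SE 0.118, adjusted p = 0.000871), and Lpin1, the phosphatidate phosphatase, by 0.84 (SE 0.190, adjusted p = 0.00181). In knockout rats 1 of 21 was called, where 6.28% of all genes were called lower: Me1, which fell by 0.42 (SE 0.104, adjusted p = 0.00526). Mlx was the 1 of 21 called between genotypes at room temperature, higher in knockout muscle by 0.90 ± 0.221 (adjusted p = 0.0221), against 2.35% of all genes called higher. Without column KO8 the counts after cold were the same, and 3 of 21 were called higher between genotypes at room temperature, against 5.16% of all genes.

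Markers of other cells in the tissue were counted in the same way, against 12.4% of all genes called higher and 8.28% lower in control rats, and 7.49% and 6.28% in knockout rats. Of 11 fibroblast genes 3 were called higher in control rats, Fbln1, Pi16 and Pdgfra, and 1 lower in knockout rats, Col1a1, which fell by 1.62 on the log2 scale. Of 3 tested genes of a brown adipocyte list 1 fell in control rats, Cox8b, by 0.33 (SE 0.0946), a cytochrome oxidase subunit that muscle also makes in quantity. Of the 26 intestinal genes 6 were called higher in control rats; Reg3b, a secreted antimicrobial lectin, rose by 2.50 ± 0.533. Column KO8 held the highest endothelial sum of KO_RT, 868 CPM against at most 693 CPM in its other libraries, and the lowest intestinal sum, 504 CPM. Its macrophage sum, 139 CPM, lay within the range of the group.

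**Figure D4:**
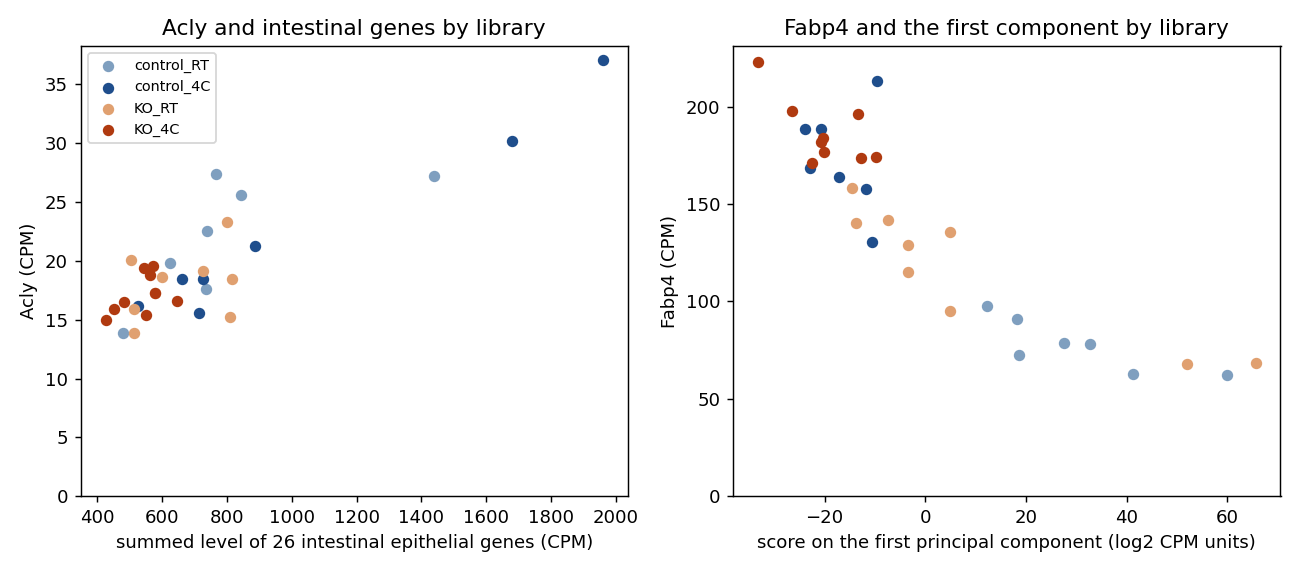
Acly against the summed level of 26 intestinal genes (left, both CPM) and Fabp4 (CPM) against the score on the first principal component of log2 CPM over all tested genes, Fabp4 included (right), 1 point per library. The 3 libraries above 887 CPM of intestinal genes rank 1st, 2nd and 4th for Acly, and the 4 libraries farthest right hold at most 68.6 CPM of Fabp4.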

How the data were processed

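RNA was sequenced from transcript 3′ ends (Lexogen QuantSeq, 50 bp reads, from 500 ng of total RNA, per the labels' protocols). The authors deposited whole-number raw counts by Ensembl gene ID. They also deposited a normalised signal, which equals the counts over 1 size factor for each library. The submitters' processing notes name R 3.4.3, DESeq2 1.18.1 and Rnor_6.0; the aligner and the counter are not given in the sources used. No odd count occurred, so each read may have been entered in duplicate; counts were used as deposited, with counts divided by 2 as an alternative. No libraries of the same group were duplicates of each other (smallest chi-square per degree of freedom 5.7). Pairs from different groups were not compared in this way.

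Libraries totalled 7275508 to 25846976 counts. Differences were fitted with edgeR 4.0.16 under R 4.3.3: filterByExpr (minimum count 10), TMM, 1 mean per group over all 32 libraries, the robust quasi-likelihood F test, and Benjamini-Hochberg adjustment at 0.05. SE is the absolute log2 difference over the square root of F. Log2 CPM used a prior count of 2. P-values measure only the spread between these samples, which may be technical. Relations with Adipoq used exact permutation within a group and 100000 permutations over all (scipy 1.17.1). KO_RT columns were mapped to the group only, and are named by their column. The tests were checked on simulated data.

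The 8 genes and the gene lists were chosen with earlier results of these data known. The rule for named genes took the 8 genes, up to 4 called genes per list and comparison in order of p, of which the text gives a selection, and the 6 genes most like the mean of Adipoq, Plin1 and Cidec. Alternatives were RLE scaling, no filter, DESeq2 1.42.0, only the groups compared, the replicate block, 2 covariates, the deposited signal as log2(value + 1), and libraries left out. Leaving out the 3 libraries highest in intestinal genes was chosen after seeing the data. So was singling out column KO8 among the libraries left out in turn, and giving r without it. Same-numbered control libraries did not deviate together (r from -0.224 to 0.187), and the numbers were not taken as pairs.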

Additional observations from a re-analysis of the deposited data

Results flagged for a closer look

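Of 32 combinations of gene and group examined, 5 had 1 library far from the others of its group. The rule gives about 1 in 20 by chance only for independent, normally distributed values. The flags of Plin1, Cidec, Cfd and Fasn come from the same library and from genes that vary together. The count of flags is therefore a description and no test against chance. In KO_RT, the library of column KO8 held 15.5 CPM of Plin1 (next highest 4.46), 6.02 CPM of Cidec (next 3.23), 400 CPM of Cfd (next 92.8) and 19.8 CPM of Fasn (next 7.54). Over the mean of the other 8 KO_RT libraries it was 6.08-fold higher for Plin1, 3.23-fold for Cidec, 6.33-fold for Cfd, 3.19-fold for Fasn and 2.82-fold for Adipoq. Its ratio was 1.13 for Acly, 0.783 for Dgat2 and 0.558 for Fabp4. In KO_4C, replicate 8 held 30.2 CPM of Adipoq, with 19.6 CPM in the next highest library.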

How the results depend on the processing

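Of the 8 genes, 4 stayed called for cold in control rats under RLE scaling, no filter and DESeq2, leaving out each library in turn gave 3 to 5, and the endothelial covariate gave 3 (Plin1, 1.13, adjusted p = 0.0837). For cold in knockout rats the count was 1, and 1 to 3 with a library left out (3 without column KO8), 2 without the 4 libraries highest on the first component, and 0 with the endothelial covariate. Between genotypes at room temperature it was 1, 2 by DESeq2 (Plin1, 1.23, adjusted p = 0.0298), 0 when only the groups compared were fitted, and 0 to 2 with a library left out: 0 without control_RT replicate 2, control_RT replicate 3 or column KO16, and 2 without column KO10 (Cidec, 1.24, adjusted p = 0.0449). For the interaction it was 0, and 1 without the 4 libraries (Fabp4). The cause of these changes was not tested. The counts over all genes moved in several of the same settings. Between genotypes at room temperature 303 genes were called, against 573 by DESeq2 and 0 when only the groups compared were fitted. For the interaction 2.42% of all genes were called without the 4 libraries, against 0.0259% over all libraries. For cold in knockout rats the endothelial covariate gave 349 genes, against 1596.

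Some log2 differences that were not called changed sign. Without the 4 libraries Acly after cold in knockout rats was 0.0233, Cfd between genotypes at room temperature -0.197, Cfd in the interaction 0.348, and the r of Dgat2 with Adipoq 0.0393. Without the 3 libraries highest in intestinal genes, an alternative chosen after seeing the data, Acly after cold in control rats was -0.228, Fasn between genotypes at 4 °C 0.0764 and Acly in the interaction 0.166. With the adipocyte marker covariate Fasn was -0.069 and -0.134 after cold in control and knockout rats and 0.00492 between genotypes at 4 °C. With the endothelial covariate, after cold in knockout rats, Plin1 was -0.0296, Cidec -0.0571, Cfd -0.592, Fasn -0.474 and Acly 0.509; Cfd between genotypes at 4 °C was -0.331, and in the interaction Acly was 0.254 and Dgat2 0.0551. With 1 library left out, Acly ran from -0.136 to 0.103 for cold in control rats and from -0.181 to 0.0724 in the interaction. For cold in knockout rats Cidec ran from -0.0224 to 0.384 and Fasn from -0.0409 to 0.312. Cfd ran from -0.255 to 0.513 between genotypes at room temperature and from -0.38 to 0.387 in the interaction, and at 4 °C Adipoq ran from -0.238 to 0.16 and Fasn from -0.116 to 0.0739.

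The replicate block was fitted for cold in control rats and for the genotypes at 4 °C; the KO_RT columns carry no number that could be paired. With it Cfd was called after cold in control rats (0.454, adjusted p = 0.0351), Acly was -0.0273, and no other call of the 8 genes changed. Of 7 same-numbered control pairs 1 correlated best with its own number, and of 7 pairs between control_4C and KO_4C 3 did.

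Over all genes, the count called between genotypes at room temperature was 303, against 573 by DESeq2, 0 with only the groups compared, 708 without the 4 libraries and 80 to 792 with a library left out. At 4 °C it was 6, against 121 with RLE, 3 without a filter, 432 by DESeq2, 81 with counts divided by 2, and 0 with only the groups compared, with the replicate block, without the 3 libraries and with the endothelial covariate; it was 0 to 556 with a library left out. For the interaction it was 3, against 1 without a filter, 106 by DESeq2, 288 without the 4 libraries, 0 with the endothelial covariate and 0 to 226 with a library left out. For cold in knockout rats the endothelial covariate gave 349 against 1596. Depth limits Cidec and Plin1 most: the lowest libraries held 4 and 10 counts.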
